A study of Mus musculus with 46 samples.

Results

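The genes described here are 34 members of the endoplasmic reticulum (ER) chaperone and unfolded protein response module, out of 55416 genes in 4 deposited tables of raw counts from mouse liver. They are a list of symbols grouped by role, and the rule for membership uses no measured value, although the list was chosen with earlier results of these data known. The list holds 14 ER folding genes, 7 genes of ER-associated degradation, 4 genes for the stress sensors and their transcription factor, 7 genes of the branch run by the kinase PERK and the factor ATF4, and 2 genes of the protein translocon. All 34 were found in every table and passed the filter on low counts in every comparison.

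The ER folds proteins that are to be secreted or inserted into membranes, and hepatocytes secrete most plasma proteins. When unfolded proteins build up, 3 membrane sensors respond: IRE1 (gene Ern1) splices the messenger RNA of Xbp1, ATF6 is cut to release a transcription factor, and PERK (gene Eif2ak3) phosphorylates eIF2alpha, which favours translation of ATF4. XBP1 and ATF6 are known to raise chaperones and degradation factors, while ATF4 raises genes of amino acid supply, redox control and stress signalling, and other kinases than PERK can also activate it.

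The 46 livers came from male mice in 10 groups, and each was snap-frozen and sequenced as bulk RNA. Groups of the Plvap line, of strain C57BL/6JBomTac, compared mice lacking Plvap in hepatic stellate cells, through a Cre recombinase driven by Lrat, with littermate controls. The labels of the diet mice give knockouts and controls alike the same genotype, an allele Plvaptm1.1Salm with the transgene Tg(Lrat-cre)1Rshw. Plvap encodes a protein of vesicle diaphragms. These groups were on chow after 10 h of fasting and 2 h of refeeding (4 Plvap KO and 4 control mice), on chow after a 12 h fast (5 and 6 mice), on a western diet with fructose in the water for 6 weeks and then fasted for 12 h (4 and 5 mice), and on a high-fat diet with plain water for 6 weeks and then fasted for 12 h (5 and 5 mice). The last pair compared whole-body Cav1 KO mice (STOCK Cav1tm1Mls/J) with C57BL/6N wild-type mice (4 and 4 mice), on chow after a 6 h fast, so that genotype and stock cannot be told apart there. Libraries are named by the letters of their labels, in alphabetical order wherever values of 1 group are listed.

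Library totals ranged from 6656342 counts (high-fat control D) to 23311539 counts (refed control B). Plvap had 4.05 to 11.4 CPM (counts scaled to a common library size) in the 18 Plvap KO livers, against 19 to 42 CPM in the 20 controls, and Cav1 had 0.413 to 1.49 CPM in Cav1 KO livers, against 3.63 to 5.85 CPM in wild-type livers. Hepatocyte markers summed to 39100 CPM or more in every library, while pancreatic acinar markers summed to at most 4.57 CPM. The hepatocyte sum, dominated by albumin, was higher in every KO group, for example 81500 to 103000 CPM in fasted Plvap KO livers and 47900 to 60500 CPM in fasted controls. The refed libraries had no mitochondrial counts, against 3.35% to 6.85% of counts elsewhere, and 22 genes seen elsewhere were at 0 in all refed libraries, 16 of them mitochondrial. Those groups were deposited in a table of their own, as were the fasted groups, so a difference between refed and fasted livers, or between a diet and chow, cannot be told apart from a difference between tables. In bulk liver, fewer cells of a type and less RNA per cell cannot be told apart.

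Promoters of some members hold a known binding motif of the ATF6 and XBP1 pathway, the ER stress response element, and these stretches are shown because the folding genes are the members called most often in the comparisons that follow. Promoters (250 bases before to 50 after the start site) were taken from RefSeq on GRCm38.p6 and matched 30 of the 34 members. Manf, Hyou1, Derl1 and Atf6 had no entry. Both strands were searched. The element, CCAAT and CCACG with 9 bases between them, was found in 9 of 30 members, 7 of them folding genes, against 37 of 27025 genes with a promoter (0.137%). The folding genes Pdia3, Pdia4, Sdf2l1 and Dnajb9 held no match to it or to the shorter form. The shorter form, ATTGG and CCACG with 1 base between them, was found in Dnajb11 and Herpud1, against 12 genes in all (0.0444%), and TGACGTGG in none of the members, against 0.714% of genes. The element TGATGNAA, known to bind C/EBP and ATF4 dimers, was found in Trib3, Asns, Chac1 and Herpud1, against 4.51% of genes. Each line gives 1 stretch, 5′ to 3′ on the strand of the gene, with the fixed letters of the match in capitals. Capitals that read CGTGG before ATTGG are the element on the opposite strand.
Hspa5 promoter, 150 bases before the start site, plus strand, chr2:34771940-34772089: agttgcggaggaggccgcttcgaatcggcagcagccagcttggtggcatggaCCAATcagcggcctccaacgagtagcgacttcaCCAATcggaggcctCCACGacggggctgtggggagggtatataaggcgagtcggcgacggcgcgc
Hsp90b1, minus strand, chr10:86705628-86705666: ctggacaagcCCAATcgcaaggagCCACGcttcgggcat
Calr, minus strand, chr8:84847065-84847103: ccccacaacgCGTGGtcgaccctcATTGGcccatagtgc
Pdia6, plus strand, chr12:17266481-17266519: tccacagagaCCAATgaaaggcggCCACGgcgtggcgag
Creld2, plus strand, chr15:88819510-88819548: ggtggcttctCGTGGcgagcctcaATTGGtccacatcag
Dnajc3, plus strand, chr14:118937817-118937855: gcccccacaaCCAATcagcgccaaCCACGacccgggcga
Syvn1, plus strand, chr19:6046522-6046560: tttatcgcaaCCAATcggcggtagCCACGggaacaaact
Derl3, plus strand, chr10:75893232-75893270: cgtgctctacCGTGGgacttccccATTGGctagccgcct
Herpud1, the shorter form, plus strand, chr8:94386367-94386397: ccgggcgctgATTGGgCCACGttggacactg
Herpud1, the C/EBP and ATF element, plus strand, chr8:94386307-94386334: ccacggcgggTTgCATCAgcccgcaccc
Asns, the C/EBP and ATF element, minus strand, chr6:7693215-7693242: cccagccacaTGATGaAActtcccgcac
Chac1, the C/EBP and ATF element, plus strand, chr2:119351039-119351066: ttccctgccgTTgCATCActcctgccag
A match is a description of these letters only. Not every match is printed. Canx held the full element at -145 bases, and Hsp90b1 held another, on the opposite strand, at -107 bases. Dnajb11 held the shorter form at 8 bases and Trib3 the C/EBP and ATF element at 15 bases, both after the start site. The Hspa5 stretch also holds another CCAAT that lacks its CCACG partner, and Herpud1 was the member with a match to both the stress element and the ATF4 element.

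**Figure D1:**
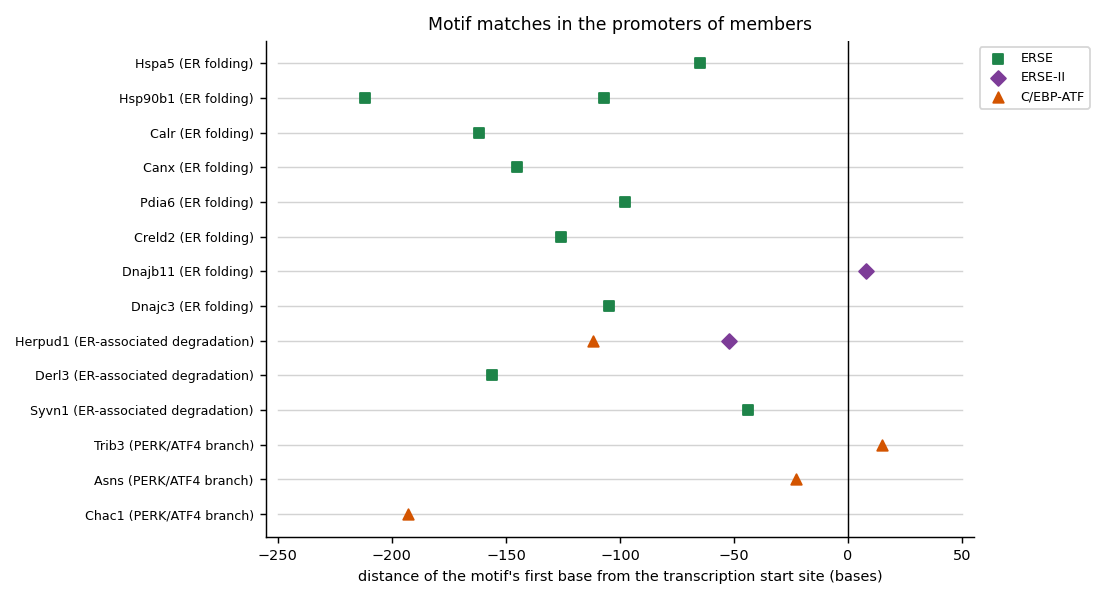
Positions of motif matches in the promoters of 14 members, in bases from the transcription start site (vertical line at 0). Squares mark the stress response element, diamonds its shorter form and triangles the C/EBP and ATF element; the squares lie between -212 and -44 bases.

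Levels can be compared between genes per length of transcript (RPKM). In fasted controls the abundant members were the chaperone BiP (Hspa5, 237 ± 86.7 RPKM, SD, n = 6), the ER chaperone GRP94 (Hsp90b1, 214 ± 35.1 RPKM), the lectin chaperone calreticulin (Calr, 191 ± 66.2 RPKM) and the disulphide isomerase Pdia3 (157 ± 36.7 RPKM). Sensor transcripts were scarcer, with Atf6 at 5.74 ± 0.835 RPKM, Ern1 at 5.47 ± 1.62 RPKM and Eif2ak3 at 1.85 ± 0.296 RPKM. Within the PERK and ATF4 branch, Atf4 itself had 71.4 ± 10.3 RPKM, while its targets lay between 0.852 ± 0.281 RPKM (Chac1) and 8.34 ± 2.09 RPKM (Trib3). In refed livers Hspa5 reached 948 ± 33.6 RPKM in Plvap KO mice and 758 ± 88.9 RPKM in controls (SD, n = 4 each).

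Refed livers had more messenger RNA for the ER folding machinery than fasted livers, while the genes of the PERK and ATF4 branch moved in both directions. In controls 22 members were higher after refeeding, where 24.1% of all genes tested were, and 2 were lower, where 22.7% of all genes were. All 14 folding genes rose, with log2 fold changes of 0.31 to 3.50 and a median of 1.37 beside 0.01 over all 14234 genes, and 5 of the 7 degradation genes rose. In Plvap KO mice 23 members were higher, beside 24.6% of genes, and 1 was lower, beside 22.6% of genes; again all 14 folding genes rose, with a median of 1.62. Calls are at an adjusted p under 0.05 in edgeR's quasi-likelihood test, with Benjamini-Hochberg adjustment over all genes tested. Where members at an unadjusted p under 0.05 are counted below, the share of all genes at that threshold was not recorded. Such counts describe the members only and cannot be set against the rest of the genes.

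Hspa5, the main ER chaperone (GRCm39 chr2:34661982-34667559, plus strand), had 3851, 4177, 4067 and 3946 CPM in refed Plvap KO livers, against 762, 798, 1005, 1194 and 2091 CPM in fasted Plvap KO livers. In controls it had 2662, 3412, 3492 and 3262 CPM after refeeding, against a lowest value of 617, a median of 858 and a highest value of 1467 CPM in fasted livers. Refed and fasted values did not overlap in either genotype. The log2 fold change was 1.80 ± 0.34 in Plvap KO mice (SE, edgeR adjusted p = 6.23e-05) and 1.69 ± 0.33 in controls (edgeR adjusted p = 7e-05).

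Creld2, a secreted ER stress factor with isomerase activity, had the steepest difference among the folding genes. It had 538, 596, 649 and 609 CPM in refed Plvap KO livers, against 24 to 181 CPM in fasted ones. Refed controls had 350, 504, 578 and 465 CPM, against 24.5 to 68.9 CPM in fasted controls. The groups lay far apart in both genotypes, although fasted Plvap KO library E, at 181 CPM, stood well above its 4 group mates at 24 to 45.5 CPM. The log2 fold changes were 3.25 ± 0.58 in Plvap KO mice and 3.50 ± 0.55 in controls (edgeR adjusted p = 3.04e-05 in Plvap KO mice and 4.69e-06 in controls).

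The other folding genes differed in size. In controls Sdf2l1, a partner of ER chaperone complexes, had a log2 fold change of 3.08 ± 0.48, Hyou1, a nucleotide exchange factor for BiP, 2.60 ± 0.38, Manf, a secreted ER stress factor, 2.51 ± 0.41, and the isomerase Pdia4 2.12 ± 0.31. Middle values came from Calr (1.39 ± 0.25), the BiP co-chaperone Dnajb11 (1.34 ± 0.21), Pdia6 (1.24 ± 0.25), Hsp90b1 (1.21 ± 0.22) and the co-chaperone Dnajb9 (0.99 ± 0.27). Small ones came from Pdia3 (0.70 ± 0.21), Dnajc3, an inhibitor of eIF2alpha kinases and co-chaperone (0.46 ± 0.17), and the membrane lectin calnexin (Canx, 0.31 ± 0.12). The call of Canx in controls was lost when the trend of fold change with gene length was removed (0.27, adjusted p = 0.0701 in edgeR), and those of Canx and Dnajc3 were lost without any 1 of refed controls B, C or D or fasted control B. The call of Canx was also lost without fasted control A or C or fasted Plvap KO library D, and that of Dnajc3 without fasted control E. In Plvap KO mice the log2 fold changes of these 12 genes ran from 0.50 ± 0.13 (Canx) to 2.88 ± 0.51 (Sdf2l1), and the call of Dnajb9 was lost without fasted library B or refed library C.

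Among the degradation genes, Syvn1, the ubiquitin ligase of ER-associated degradation, changed most clearly. Its level was 465, 553, 481 and 775 CPM in refed Plvap KO livers, against 40.5 to 99.9 CPM in fasted ones, and 267 to 504 CPM in refed controls, against 43.3 to 65.9 CPM in fasted controls. Every refed liver was above every fasted liver. The log2 fold changes were 3.31 ± 0.36 in Plvap KO mice and 3.10 ± 0.34 in controls (edgeR adjusted p = 9.85e-09 in Plvap KO mice and 8.57e-09 in controls). In Plvap KO mice its partner Sel1l rose by 1.94 ± 0.21, the mannose-binding factor Edem1 by 1.01 ± 0.12 and the channel component Derl3 by 3.29 ± 0.73. In controls Sel1l rose by 1.45 ± 0.20, Edem1 by 0.79 ± 0.11 and Derl3 by 2.01 ± 0.68. Its relatives Derl1 and Derl2 had log2 differences between -0.04 and 0.07 and were not called.

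Herpud1, a scaffold of the same ligase, was called in controls and not in Plvap KO mice, and the difference between genotypes was not called. It had 812, 733, 794 and 856 CPM in refed Plvap KO livers and 519, 575, 613, 910 and 1239 CPM in fasted ones. Refed controls had 515, 801, 917 and 711 CPM, against a lowest value of 169, a median of 346 and a highest value of 627 CPM in fasted controls. The refed values lay within the fasted range in Plvap KO mice, and 3 of 4 lay above it in controls. The log2 difference was 0.08 ± 0.36 in Plvap KO mice (edgeR adjusted p = 0.88) and 1.04 ± 0.34 in controls (edgeR adjusted p = 0.013), and the difference of these, -0.96 ± 0.50, had an edgeR adjusted p of 0.631.

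**Figure D2:**
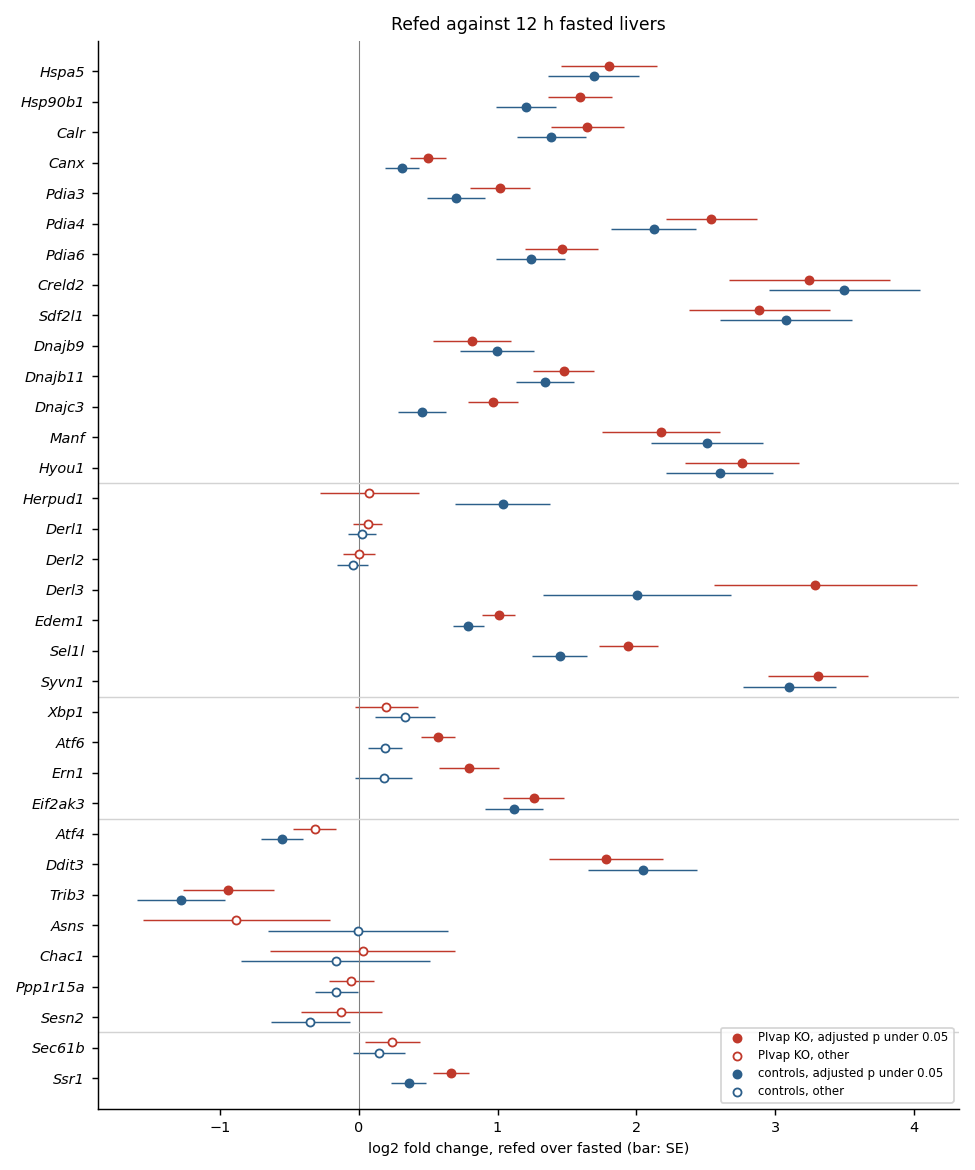
Log2 fold changes of the 34 members, refed over 12 h fasted, with standard errors; red, Plvap KO mice (4 and 5); blue, controls (4 and 6). Filled points have an adjusted p under 0.05. All 14 folding genes at the top are filled and positive, while Atf4 and Trib3 in controls, at -0.55 and -1.28, are filled and negative.

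Sensor transcripts moved less. Eif2ak3, which encodes PERK, had 28 to 33.5 CPM in refed Plvap KO livers and 10.1 to 22 CPM in fasted ones, against 17.1 to 29.2 CPM in refed controls and 9.44 to 14.1 CPM in fasted controls. Refed values were above fasted values in both genotypes, with a log2 fold change of 1.26 ± 0.22 in Plvap KO mice (edgeR adjusted p = 1.39e-05) and 1.12 ± 0.21 in controls (edgeR adjusted p = 4.14e-05). Atf6 (0.57 ± 0.12) and Ern1 (0.79 ± 0.21) were called in Plvap KO mice (edgeR adjusted p = 0.000271 and 0.00261), and in controls they had 0.19 ± 0.12 and 0.18 ± 0.21 (edgeR adjusted p = 0.199 and 0.498). For neither gene was the difference between genotypes called. Xbp1, the factor spliced by IRE1, was not called, with 222 to 260 CPM in refed and 181 to 231 CPM in fasted Plvap KO livers, and 242 to 306 CPM in refed and 184 to 279 CPM in fasted controls. Counts per gene do not separate spliced from unspliced Xbp1.

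Of the 7 genes of the PERK and ATF4 branch, 1 rose and 2 fell in controls, and 1 rose and 1 fell in Plvap KO mice. Ddit3, the stress factor CHOP, had 39.8, 31.5, 28.7 and 6.19 CPM in refed Plvap KO livers and 5.47, 5.75, 8.7, 4.62 and 14.6 CPM in fasted ones. In controls it had 31.4, 36.6, 16 and 15.9 CPM after refeeding, against 5.11 to 9.3 CPM. The groups overlapped in Plvap KO mice through refed library D, at 6.19 CPM, and did not overlap in controls. Its log2 fold change was 1.78 ± 0.41 in Plvap KO mice (edgeR adjusted p = 0.000609) and 2.04 ± 0.39 in controls (edgeR adjusted p = 7.32e-05).

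Trib3, a pseudokinase that dampens ATF4, moved the other way. It had 4.35, 4.83, 12.1 and 10.1 CPM in refed Plvap KO livers and 9.59 to 18.9 CPM in fasted ones, and 5.93, 6.87, 7.01 and 9.16 CPM in refed controls, against a lowest value of 11.5, a median of 17.3 and a highest value of 23.6 CPM in fasted controls. The values overlapped in Plvap KO mice and not in controls. Its log2 fold change was -0.94 ± 0.33 in Plvap KO mice (edgeR adjusted p = 0.0181) and -1.28 ± 0.32 in controls (edgeR adjusted p = 0.00125). In Plvap KO mice the call of Trib3 was lost with the gene length trend removed (-0.76) and without refed Plvap KO library A (-0.74) or B (-0.77).

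Atf4 had 85.6 to 148 CPM in refed Plvap KO livers and 135 to 171 CPM in fasted ones, and 95.9 to 143 CPM in refed controls, against 138 to 200 CPM in fasted controls. The log2 difference was -0.32 ± 0.15 in Plvap KO mice, which was not called (edgeR adjusted p = 0.0899), and -0.55 ± 0.15 in controls (edgeR adjusted p = 0.00284). The asparagine synthetase Asns, the glutathione-degrading enzyme Chac1, the eIF2alpha phosphatase subunit Ppp1r15a and the stress protein Sesn2 were not called in either genotype, with log2 differences of -0.88 to 0.03. In the translocon, Ssr1, a receptor subunit beside the channel, rose by 0.67 ± 0.13 in Plvap KO mice and 0.36 ± 0.13 in controls, and the channel subunit Sec61b was not called. The call of Ssr1 in controls was lost without refed control B or D. The 2 comparisons with fasted livers use separate mice, but both rest on the same 2 tables.

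Between refed and fasted Plvap KO livers 20 members lay wholly above and 0 wholly below, beside 16.8% and 17.1% of all 14463 genes. Between refed and fasted controls 17 lay wholly above and 1, Trib3, wholly below, beside 16.3% and 16.6% of genes. Averaged over genes centred on their own means, the folding genes stood at 1.53 ± 0.08 log2 units in refed and -0.30 ± 0.47 in fasted Plvap KO livers, and at 1.27 ± 0.22 in refed and -0.40 ± 0.38 in fasted controls (SD over livers). The same mean of the PERK and ATF4 branch was -0.002 ± 0.25 in refed and 0.16 ± 0.29 in fasted Plvap KO livers, and -0.02 ± 0.08 in refed and 0.06 ± 0.11 in fasted controls. Marker sums of Kupffer cells also differed between refed and fasted livers. They were 228 to 269 CPM in refed Plvap KO livers and 539 to 764 CPM in fasted ones. In controls they were 164 to 257 CPM in refed and 365 to 593 CPM in fasted livers. After the 6 h fast of the Cav1 comparison they were 198 to 315 CPM in Cav1 KO and 149 to 217 CPM in wild-type livers. The part of Kupffer cells in these results was not tested.

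**Figure D3:**
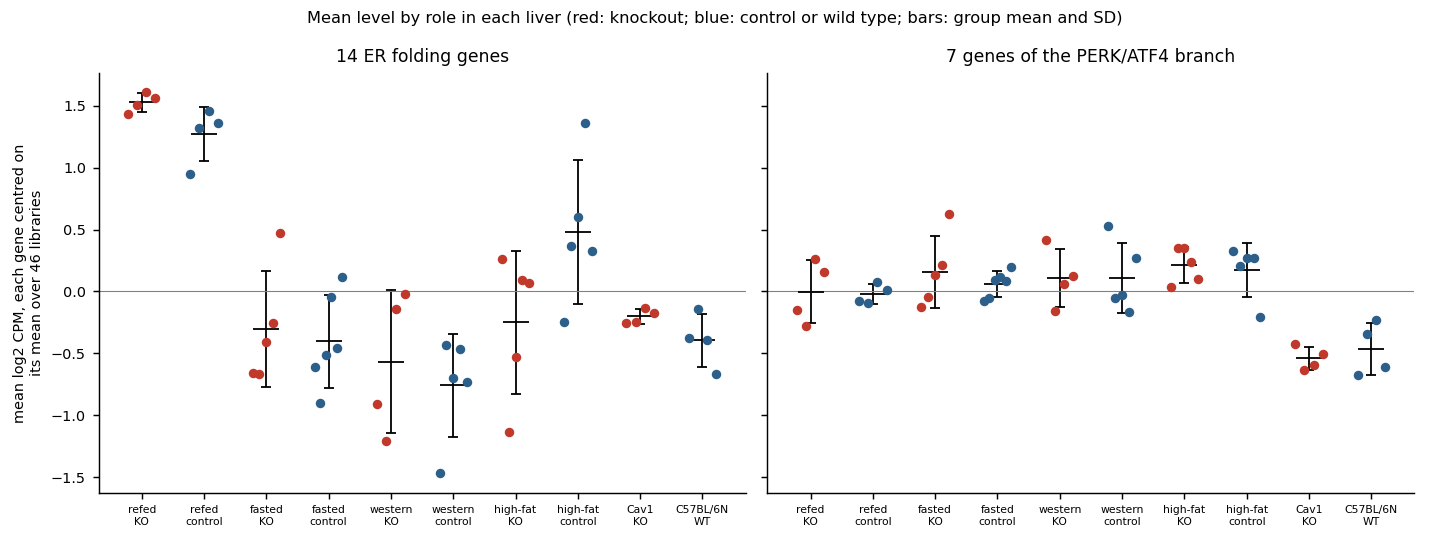
Mean log2 CPM of the 14 folding genes (left) and the 7 genes of the PERK and ATF4 branch (right) in each liver, each gene centred on its mean over 46 libraries; bars show group mean and SD. Over single livers the folding genes range from -1.47 (western control A) to 1.61 and the other branch from -0.67 to 0.62.

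Other genes of the pathway, from lists by role, moved in both directions after refeeding. In controls 9 of 23 tested ER folding genes outside the module rose and 5 fell, 15 of 25 degradation and translocation genes rose and 5 fell, 6 of 14 sensors and related factors rose and 3 fell, and 10 of 27 ATF4 targets rose and 3 fell, read against 24.1% and 22.7% of all genes. In Plvap KO mice 11 of the ER folding genes rose and 4 fell, 16 of the degradation and translocation genes rose and 5 fell, 7 sensors rose and 2 fell, and 8 ATF4 targets rose and 5 fell. Examples in controls are the oxidase Ero1a (1.03 ± 0.13), the thioredoxin-like Txndc11 (1.24 ± 0.17) and the ER channel protein Wfs1 (2.07 ± 0.19), and on the falling side the peroxiredoxin Prdx4 (-1.14 ± 0.11), the lectin Erlec1 (-0.73 ± 0.10) and the liver-enriched ER factor Creb3l3 (-0.56 ± 0.11). Among ATF4 targets the hormone Fgf21 (-1.83 ± 0.68) and the enzyme Cth (-1.33 ± 0.37) fell, while the tRNA synthetase gene Wars (1.12 ± 0.13) and the transporter subunit Slc3a2 (0.72 ± 0.14) rose.

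Fasted controls on the high-fat diet had more chaperone RNA than fasted chow controls, with a wide spread between livers. Against fasted chow controls, 19 members were higher, beside 4.21% of all genes, and 1 was lower, beside 4.25%. These were 10 of 14 folding genes, 5 of 7 degradation genes, Xbp1 and Eif2ak3 among the sensors, Ddit3 and Chac1 upward and Trib3 downward in the PERK and ATF4 branch. The folding genes had a median log2 fold change of 0.77, beside 0.01 over all genes. Library D of the high-fat controls, also the shallowest library, was the highest of its group for all 14 folding genes, and without it 4 of the 20 calls were left, those of Syvn1, Xbp1, Chac1 and Trib3. Without high-fat control C or fasted control B the counts were 11 and 12. Hepatocyte markers summed to 39100 to 45800 CPM in high-fat controls, against 47900 to 60500 CPM in chow controls, without overlap, and their part in these results was not tested.

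Hspa5 had 1144, 1769.9, 1972, 3579 and 1658 CPM in high-fat controls, against 617, 858 and 1467 CPM (lowest, median and highest) in fasted chow controls. Its log2 fold change was 1.03 ± 0.31 (edgeR adjusted p = 0.034), and 0.72 ± 0.30 without library D (edgeR adjusted p = 0.165). The call of Hspa5 was also lost without high-fat control C or any 1 of fasted controls A, B, C or E (edgeR adjusted p from 0.0545 to 0.0781). Creld2 had 52.7, 116, 166, 396 and 114 CPM, against 24.5, 37.8 and 68.9 CPM. In both genes library A of the high-fat controls lay within the chow range and library D lay furthest above it. The log2 fold change of Creld2 was 2.01 ± 0.51 (edgeR adjusted p = 0.0126) with all libraries and 1.42 ± 0.49 without library D (edgeR adjusted p = 0.0829).

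Syvn1, Xbp1, Trib3 and Chac1 were the members whose high-fat and chow controls did not overlap, 3 above and 1 below, beside 3.13% and 4.16% of all genes. Xbp1 had 363, 374, 348, 372 and 455 CPM in high-fat controls, against 184, 207 and 279 CPM (lowest, median and highest) in chow controls. All 5 livers were above the chow range, and the log2 fold change was 0.84 ± 0.20 (edgeR adjusted p = 0.00805). Syvn1 had 72.6, 117, 176, 330 and 115 CPM, against 43.3, 46.9 and 65.9 CPM, with a log2 fold change of 1.72 ± 0.31 (edgeR adjusted p = 0.00076). Trib3 lay at 6.58 to 8.27 CPM in high-fat controls, below the 11.5 to 23.6 CPM of chow controls (-1.20 ± 0.30, edgeR adjusted p = 0.0113).

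Chac1 was higher on both diets than in fasted chow livers, in both genotypes. In western diet livers it had 21.1, 2.31, 6.65 and 10 CPM in Plvap KO mice and 9.45, 13.1, 3.7, 6.36 and 5.67 CPM in controls. On the high-fat diet it had 7.54, 4.79, 17.5, 13.8 and 14.6 CPM in Plvap KO mice and 9.74, 4.91, 4.34, 3.49 and 11.4 CPM in controls. Fasted chow livers had 0.567 to 2.95 CPM in Plvap KO mice and 0.885 to 1.98 CPM in controls. Refed chow livers had 0.313 to 5.65 CPM in Plvap KO mice and 0.702 to 2.53 CPM in controls. Every liver on a diet was above the fasted chow livers of its genotype, except western diet Plvap KO library B at 2.31 CPM, while the refed Plvap KO range reached above libraries B of both diets in Plvap KO mice.

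The fold changes of Chac1 were similar in size. Against chow, its log2 fold change was 2.45 ± 0.58 in western diet controls (edgeR adjusted p = 0.0183), 2.28 ± 0.58 in high-fat controls (edgeR adjusted p = 0.013), 2.39 ± 0.61 in western diet Plvap KO mice (edgeR adjusted p = 0.0319) and 2.63 ± 0.59 in high-fat Plvap KO mice (edgeR adjusted p = 0.00308). These comparisons share their chow livers within a genotype. In western diet controls the call was lost without western control B or fasted control D, and in western diet Plvap KO mice it was lost without any 1 of 6 libraries (fasted A, B, C or E, western A or D).

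Chac1 was the single member called higher on the western diet, in controls (beside 1.12% of genes higher and 0.688% lower) and in Plvap KO mice (beside 1.02% and 1.25%). No member was called lower. All 14 folding genes had negative log2 differences in western diet controls, with a median of -0.32. These genes moved together, and western control A was the lowest of its group for all 14. Its centred folding mean was -1.47 log2 units, against -0.734 to -0.432 in the other western controls. At an unadjusted p under 0.05 edgeR had 7 members in controls and 3 in Plvap KO mice. Hspa5 had 754, 550, 1222 and 1378 CPM in western diet Plvap KO livers and 344, 1126, 799, 1039.9 and 717 CPM in western diet controls, within or below the chow range. Between western diet and chow controls Chac1 lay wholly above and Ssr1 wholly below, beside 1.26% and 1.25% of genes. Between western diet and chow Plvap KO livers 0 members were free of overlap.

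In high-fat Plvap KO mice 2 members were higher than in chow Plvap KO mice, Xbp1 and Chac1, beside 8.23% of all genes, and Atf4 was lower, beside 7.22%. Xbp1 had 410, 186, 561, 388 and 307 CPM, against 181 to 231 CPM in fasted chow Plvap KO livers. Library B of the high-fat Plvap KO mice was within the chow range and the other 4 above it (0.85 ± 0.21, edgeR adjusted p = 0.00682). Atf4 had 85.5 to 129 CPM, against 135 to 171 CPM (-0.45 ± 0.15, edgeR adjusted p = 0.0326), and its call was lost without high-fat Plvap KO library B (-0.39) or E (-0.37) or fasted Plvap KO library E (-0.40). Chac1 lay wholly above and Atf4 wholly below the chow livers, beside 4.35% and 4.96% of genes. The folding genes had a median log2 difference of 0.07 and 0 calls. For no member was the difference between genotypes in the effect of the high-fat diet called, where 0% of all genes were; at an unadjusted p under 0.05 edgeR had 12 members, and all 14 folding genes had a negative difference, with a median of -0.68.

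The western and the high-fat diets can be compared within a single table. In controls 0 members were higher and 8 lower on the western diet, beside 1.1% and 0.99% of all genes. The 8 were the folding genes Sdf2l1 (log2 fold change -2.53 ± 0.55), Manf (-1.77 ± 0.44), Pdia6 (-1.27 ± 0.32), Calr (-1.16 ± 0.27), Dnajb11 (-1.09 ± 0.25) and Hsp90b1 (-1.02 ± 0.26), the ligase Syvn1 (-1.58 ± 0.39) and the translocon subunit Sec61b (-0.62 ± 0.14), with edgeR adjusted p from 0.0187 to 0.0493. All 14 folding genes were negative, with a median of -1.22, beside 0.01 over all 13533 genes. In edgeR 25 members had an unadjusted p under 0.05, where the share of all genes was not recorded. Liver endothelial markers summed to 113 to 147 CPM in western diet controls, against 158 to 184 CPM in high-fat controls, without overlap, and their part in these results was not tested.

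Sdf2l1 had 9.14, 25.5, 16, 21.4 and 16.2 CPM in western diet controls, against 38.7, 79.1, 109, 206 and 73.9 CPM in high-fat controls. Sec61b had 64, 53.9, 57.1, 66.9 and 49.8 CPM, against 85.4, 91.9, 76.7, 110 and 82.2 CPM. In both genes the groups did not overlap. In all, 14 members lay wholly below in western diet controls and Trib3 wholly above, beside 2.01% and 2.23% of genes. Trib3 had 8.33 to 23.6 CPM on the western diet and 6.58 to 8.27 CPM on the high-fat diet, with a log2 difference of 1.25 ± 0.33 (edgeR adjusted p = 0.0593).

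The count of 8 rested on few libraries. Without high-fat control D it was 0, although Sdf2l1 kept a log2 difference of -2.10 ± 0.51 (edgeR adjusted p = 0.0683) and Sec61b one of -0.53 ± 0.14 (edgeR adjusted p = 0.0664). It was 1 without western control A or C or high-fat control C, 2 without western control D or E, 3 without high-fat control B, and 4 without high-fat control E or western Plvap KO library A or C. It was 5 without high-fat Plvap KO library D and 15 without high-fat control A. Without western control B 3 members were lower and 1 higher, and without high-fat Plvap KO library B 14 were lower and 1 higher. In Plvap KO mice 0 members were called between the diets, beside 4.43% of genes higher and 4.01% lower, and 0 had an unadjusted p under 0.05 in edgeR. The genotype difference of the diet contrast was called for 0 members, beside 0% of genes in each direction, with 7 members at an unadjusted p under 0.05.

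**Figure D4:**
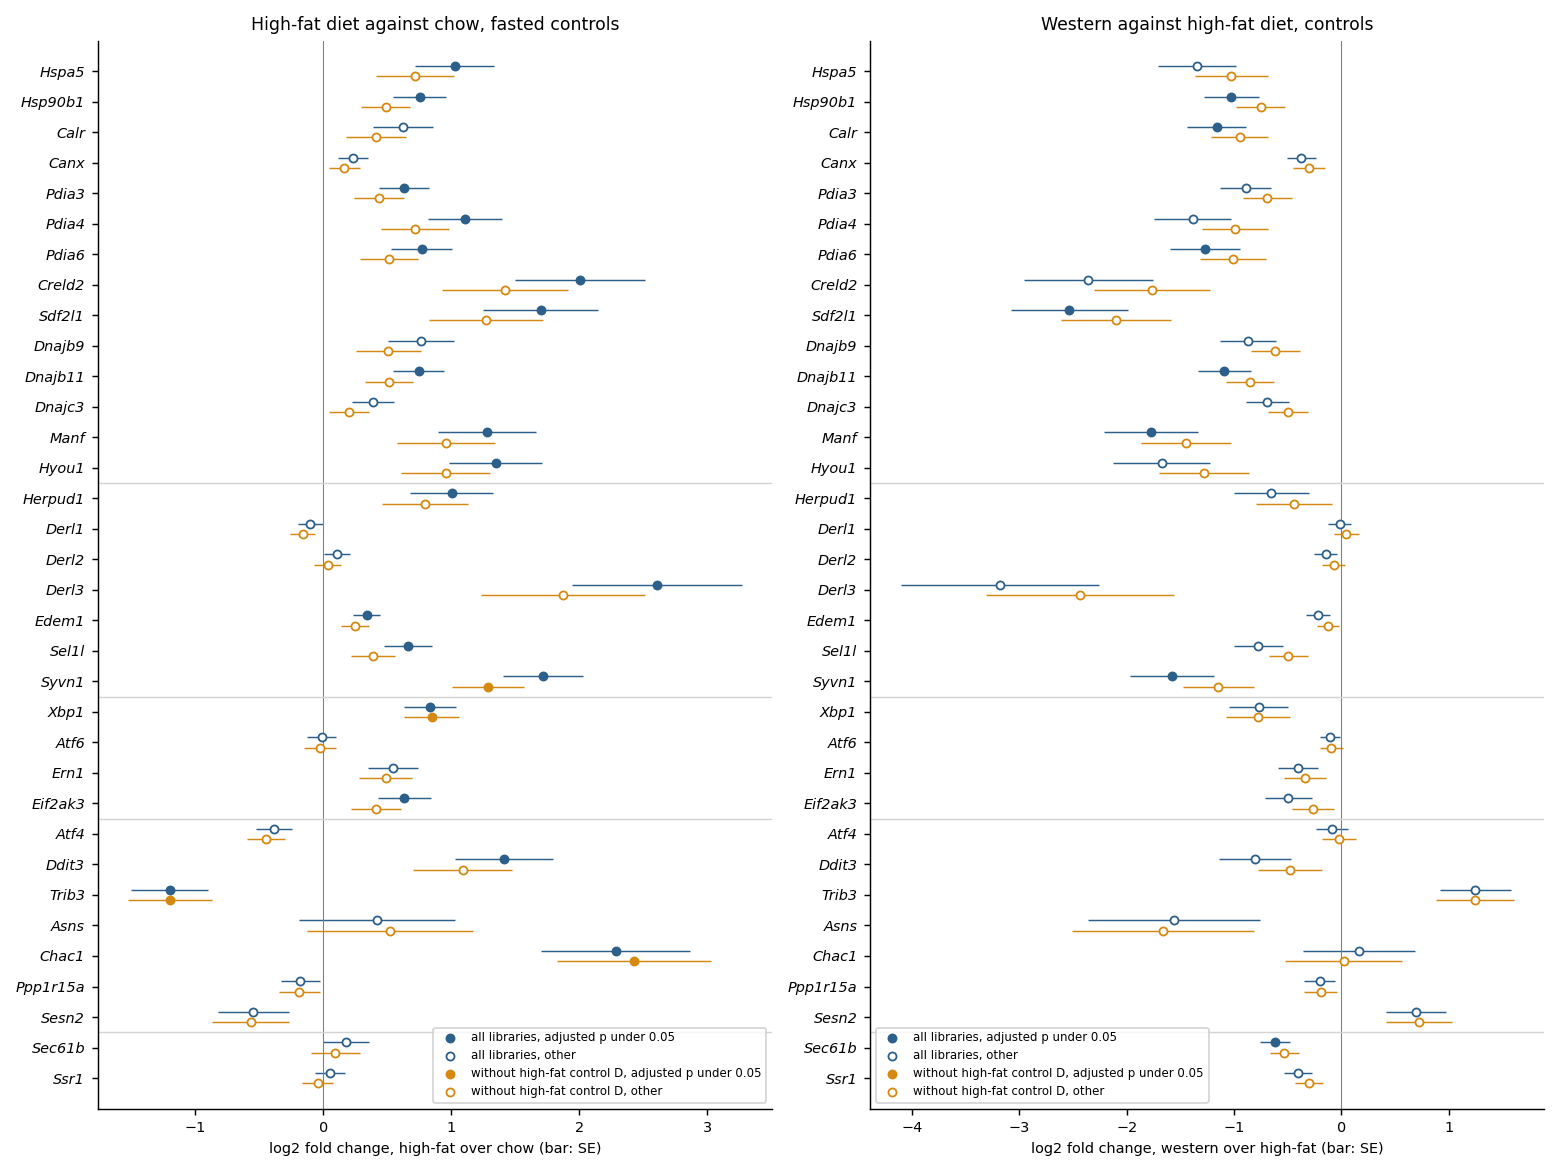
Log2 fold changes with standard errors for the 34 members in controls, high-fat over chow (left) and western over high-fat (right). Blue, all libraries; orange, without high-fat control D; filled points have an adjusted p under 0.05. On the left 20 points are filled in blue and 4 in orange, and on the right 8 and 0.

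Among other genes of the pathway, 4 of 23 ER folding genes and 5 of 25 degradation and translocation genes were lower in western diet than in high-fat controls and 0 higher. They included the proline isomerase Ppib (-0.61 ± 0.12), the glucosyltransferase Uggt1 (-0.57 ± 0.13), the translocon subunits Sec61g (-0.83 ± 0.16) and Sec61a1 (-0.57 ± 0.12) and the signal peptidase subunit Spcs3 (-0.62 ± 0.12). No other sensor or ATF4 target was called. In that comparison 0.99% of all genes were lower on the western diet and 1.1% higher. Between high-fat and chow controls, where 4.21% of all genes were higher and 4.25% lower, 1 of 23 other ER folding genes was lower and 0 higher, 2 of 25 degradation and translocation genes were higher and 0 lower, and 1 of 14 sensors was lower and 0 higher. High-fat controls had 4 of 27 other ATF4 targets lower than chow controls and 0 higher, with Cth at -1.62 ± 0.35, Gpt2 at -0.78 ± 0.19, Atf5 at -0.89 ± 0.21 and Ddit4 at -2.50 ± 0.67.

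Loss of Plvap in stellate cells was tested within each table. In 12 h fasted livers 0 members were called, beside 1.13% of genes higher and 1.12% lower. The 2 members with an unadjusted p under 0.05 in edgeR were Herpud1, with 519, 575, 613, 910 and 1239 CPM in Plvap KO livers and 169, 346 and 627 CPM (lowest, median and highest) in controls (1.08 ± 0.37, edgeR adjusted p = 0.162), and Edem1 (0.24 ± 0.09, edgeR adjusted p = 0.179). The Herpud1 values of the groups overlapped. The folding genes had a median log2 difference of 0.04, beside -0.01 over all 12840 genes.

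In refed livers 0 members were called, beside 0% of genes higher and 0.0227% lower. All 14 folding genes had small positive log2 differences, with a median of 0.25 beside 0.01 over all 13228 genes. In edgeR 8 members had an unadjusted p under 0.05, where the share of all genes was not recorded. No label states that the library letters pair the mice. With these letters as a replicate block, the number of members with an unadjusted p under 0.05 was 16, with 1 member and 30 genes called. The centred mean of the folding genes was 1.431, 1.508, 1.609 and 1.566 log2 units in refed Plvap KO livers A to D, against 0.952, 1.323, 1.454 and 1.363 in refed controls A to D. The groups overlapped, with Plvap KO liver A below control C. The mean of the degradation genes was 0.989 to 1.414 in refed Plvap KO livers and 0.344 to 0.991 in refed controls, which also overlapped. Hspa5, Pdia4, Dnajc3, Derl3 and Edem1 lay wholly above the controls and 0 members wholly below, beside 2.61% and 2.59% of genes. Hspa5 had 3851 to 4177 CPM in refed Plvap KO livers and 2662 to 3492 CPM in refed controls (0.33 ± 0.12, edgeR adjusted p = 0.596). Refed control A was the lowest control for all 14 folding genes. Stellate cell markers summed to 135 to 141 CPM in refed Plvap KO livers, against 88.8 to 125 CPM in refed controls, without overlap. Hepatocyte markers summed to 90000 to 94200 CPM in refed Plvap KO livers and 55900 to 66800 CPM in refed controls, also without overlap. The part of either marker set in these values was not tested.

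Derl3 had 30.8, 45.3, 65.7 and 70.4 CPM in refed Plvap KO livers, against 10.2, 29.7, 29.3 and 23.5 CPM in refed controls. The lowest KO value was just above the highest control value. Its log2 difference was 1.20 ± 0.37 (edgeR adjusted p = 0.529). With the replicate block it was 1.24 ± 0.16 (edgeR adjusted p = 0.027) and 1 member was called, beside 30 of all genes. DESeq2 without the block also called it (1.19 ± 0.32, adjusted p = 0.0475), beside 59 of all genes. Derl3 is also known from secretory cells other than hepatocytes. B and plasma cell markers summed to 28.7 to 37.7 CPM in refed Plvap KO livers and 22.5 to 31.6 CPM in refed controls, and their part in this value was not tested.

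On the western diet 0 members were called between Plvap KO and control mice, beside 0.00739% of genes in each direction, and 0 had an unadjusted p under 0.05 in edgeR. On the high-fat diet 0 members were called, beside 0.2% of genes higher and 0.0813% lower. At an unadjusted p under 0.05 edgeR had 14 members, a threshold at which the share of all genes was not recorded. Of the 34 members, 29 had negative differences. The folding genes were all negative, with a median of -0.72 beside 0.01 over all genes. Stellate cell markers summed to 133 to 159 CPM in high-fat Plvap KO livers, against 97.6 to 107 CPM in high-fat controls, without overlap. Hepatocyte markers summed to 70200 to 99800 CPM in high-fat Plvap KO livers and 39100 to 45800 CPM in high-fat controls, also without overlap. The part of either marker set in these values was not tested. Hspa5 had 1559, 559, 960, 1374 and 1199 CPM in high-fat Plvap KO livers, against 1144, 1769.9, 1972, 3579 and 1658 CPM in high-fat controls. The groups overlapped, and 0 members were free of overlap, beside 1.78% of genes wholly above and 1.48% wholly below; the difference of -0.84 ± 0.36 (edgeR adjusted p = 0.301) was -0.54 ± 0.34 without control D (edgeR adjusted p = 0.586).

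Ddit3 had 7.86, 5.45, 6.26, 4.96 and 8.93 CPM in high-fat Plvap KO livers, against 7.86, 9.26, 25.7, 30.6 and 8.93 CPM in high-fat controls. Controls C and D were far above the other 8 livers. The log2 difference was -1.26 ± 0.34 (edgeR adjusted p = 0.114), and DESeq2 called it (-1.29 ± 0.32, adjusted p = 0.00933). Between the diets, or between a feeding state and fasting, the effect of Plvap loss did not differ at the threshold for any member, where 0% of all genes differed in either direction; 3 members had an unadjusted p under 0.05 in edgeR for refed minus fasted and 0 for western minus chow.

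Cav1 KO livers had 1 member higher than wild-type livers, beside 2.57% of genes, and 0 lower, beside 2.11%. Pdia6, a disulphide isomerase that binds BiP, had 459, 380.9, 459 and 465 CPM in Cav1 KO livers, against 307, 358, 321 and 253 CPM in wild-type livers. The groups did not overlap, and the log2 fold change was 0.53 ± 0.12 (edgeR adjusted p = 0.0275). It was lost without Cav1 KO library A, C or D or wild-type library A, C or D. Liver endothelial markers summed to 138 to 198 CPM in Cav1 KO livers, against 203 to 231 CPM in wild-type livers, without overlap. Hepatocyte markers summed to 75300 to 105000 CPM in Cav1 KO livers and 57600 to 69500 CPM in wild-type livers, also without overlap. The part of either marker set in this result was not tested. Pdia6 and Derl1 lay wholly above and Trib3 wholly below in Cav1 KO livers, beside 5.92% and 6.59% of genes. Trib3 had 9.85, 10.3, 5.79 and 10.7 CPM in Cav1 KO livers, against 12.9, 17.5, 23.7 and 15.1 CPM in wild-type livers (-0.90 ± 0.22, edgeR adjusted p = 0.0509).

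Of the other members of the Cav1 comparison none was called, and 7 members in all had an unadjusted p under 0.05 in edgeR. Hspa5 had 568, 581, 572 and 734 CPM in Cav1 KO livers and 532, 621, 533 and 459 CPM in wild-type livers (0.21 ± 0.12, edgeR adjusted p = 0.354). Ern1 (-0.47 ± 0.13, edgeR adjusted p = 0.0755) and Trib3 were called lower by DESeq2, with adjusted p of 0.0283 and 0.00455. Of other folding genes, Prdx4 (0.70), Dnajc10 (0.37) and Pdia5 (0.41) were higher in Cav1 KO livers and the oxidase Ero1b (-1.10) lower, out of 23 tested. Of all genes, 2.57% were higher and 2.11% lower. The other lists of pathway genes are not described for this comparison.

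**Figure D5:**
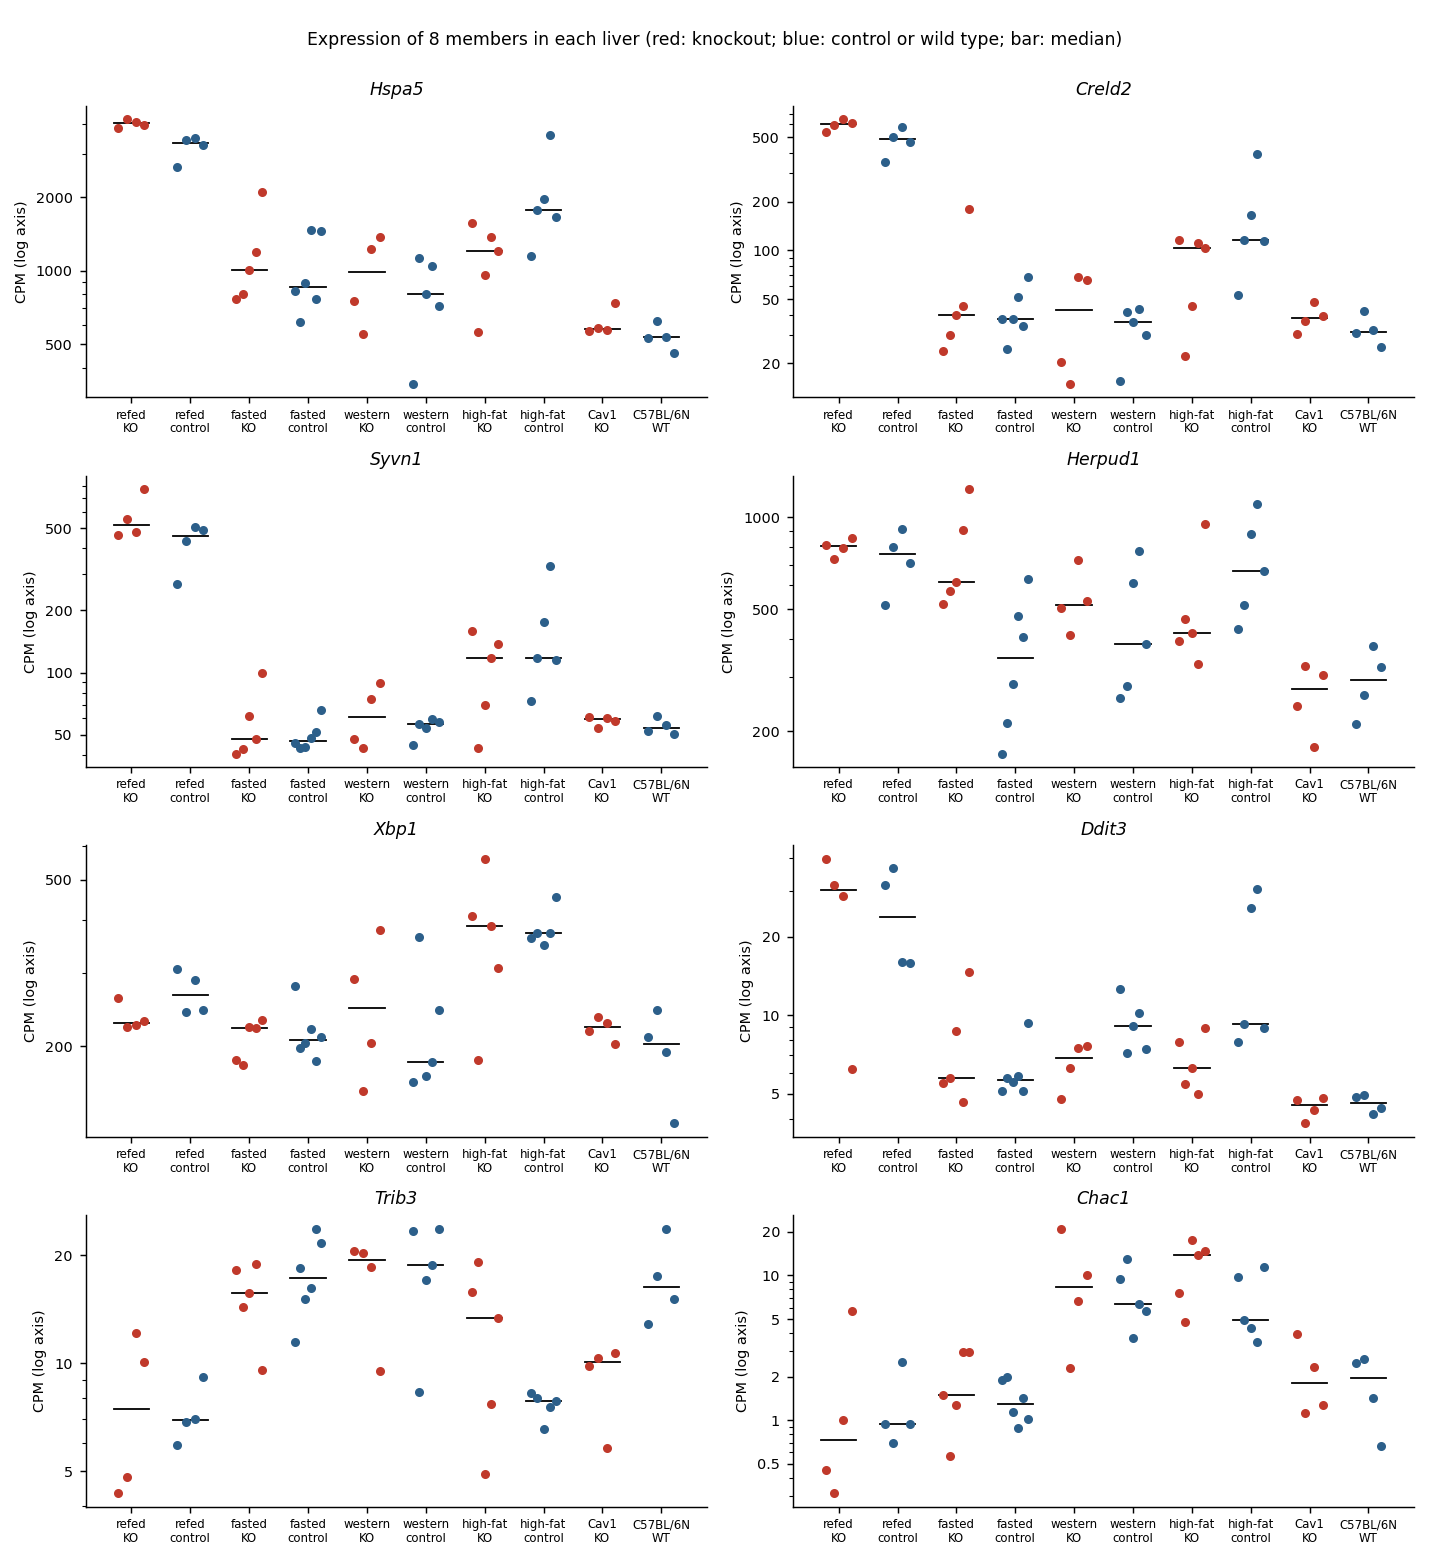
CPM of 8 members in each of 46 livers, on log axes, by group; red, knockout; blue, control or wild type; bar, median. Hspa5, Creld2 and Syvn1 are high in both refed groups, Xbp1 sits at 348 to 455 CPM in high-fat controls, and Chac1 is above 2 CPM in all livers on either diet.

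Within groups the spread of the folding genes differed widely. The highest liver of a group exceeded the lowest by a median factor of 2.91 over the 14 folding genes in high-fat controls (up to 7.51 for 1 gene), and by 2.55 in high-fat Plvap KO mice, but by 1.25 in refed Plvap KO and 1.40 in refed control mice, and by 1.27 in Cav1 KO and 1.42 in wild-type mice. In some groups a single liver took the same rank for the whole set. Fasted Plvap KO library E and high-fat control D were the highest of their group for all 14 folding genes, and refed control A, western control A and high-fat Plvap KO library B the lowest for all 14. High-fat control A, western Plvap KO library B, fasted control B and wild-type library D of the Cav1 comparison were the lowest of their group for 13 of 14, and wild-type library B was the highest for 13. In Cav1 KO and refed Plvap KO mice no liver was highest for more than 7 of the 14 or lowest for more than 8. For the PERK and ATF4 branch the median factor was 1.59 in high-fat controls, with up to 23.2 for Asns, and it was 2.57 in high-fat Plvap KO mice, 2.84 in western diet controls and 2.79 in refed Plvap KO mice.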

How the data were processed

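The authors deposited raw counts per gene for 46 libraries in 4 tables of 55416 genes, with the summed exon length in bases (other unit), per the file headers. Per the submitters' processing notes, STAR 2.7.8a, featureCounts 2.0, FastQC 0.11.9, MultiQC 1.10.1 and GRCm39 were used; the annotation release and counting strand are not given in the sources used here. Groups follow the labels; 1 protocol text gives other fasting times for the refed and Cav1 mice, and the per-sample times were used. The labels name separate mice, so p-values measure the spread between livers, and counts carry counting error besides.

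Genes were filtered (minimum count 10, minimum total 15), scaled by TMM and fitted with edgeR 4.0.16 (R 4.3.3, limma 3.58.1) by the quasi-likelihood test, at a Benjamini-Hochberg adjusted p under 0.05. Knockout contrasts and the contrast of western and high-fat diets were fitted within their own table, with the groups of that table; feeding and diet against chow were fitted over 38 libraries of the Plvap line. CPM were scaled over all 46 libraries (14463 genes), and role means are mean log2(CPM + 0.5), centred. No within-group pair of the 85 held identical values.

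All 34 members were described, together with lists of 93 other pathway genes and 40 cell type markers; members and lists were chosen with earlier results of these data known. No label states that library letters pair the mice. Deviations from group means were correlated between Plvap KO or Cav1 KO livers and reference livers of the same letter. In the refed table r was 0.207 to 0.249 for all 4 letters. Other tables had letters under 0.1, although letter C of the fasted table had 0.275. No correlation was computed between livers of different letters, so pairing was not established. The scripts were tested on simulated data. Alternatives were DESeq2 1.42.0, its size factors in edgeR, no filter, removal of the gene length trend, the letters as a replicate block, each library left out, only the 2 groups compared, and exclusion of mitochondrial genes and of any gene whose counts were 0 throughout 1 table; exclusion of 2 libraries of highest chaperone level was added after seeing the data.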

Additional observations from a re-analysis of the deposited data

Results flagged for a closer look

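Sets of 1 member in 1 group were examined, as were sets of a role mean, or of the folding mean minus the PERK and ATF4 mean, in 1 group. In 16 of 340 sets of the first kind and 4 of 60 of the second, the highest or lowest liver stood apart from the others. The gap was wide for the range of its group. Chance alone gives this in about 1 in 20 sets. Fasted Plvap KO library E had 334 CPM of the lectin chaperone gene Canx (281 to 290 CPM in its group mates), 247 CPM of the isomerase gene Pdia4 (114 to 135 CPM) and 22 CPM of Eif2ak3, which encodes PERK (10.1 to 12.1 CPM). Among fasted controls, library F had 9.3 CPM of the stress factor gene Ddit3 (5.11 to 5.82 CPM in the others).

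Refed control A was low, with 1494 CPM of the chaperone gene Hsp90b1 (2080.3 to 2164 CPM in the other refed controls), 452 CPM of Pdia4 (675 to 706 CPM) and a mean of the degradation genes of 0.344 on the centred log2 scale (0.885 to 0.991).

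In western diet Plvap KO mice, library D had 9.54 CPM of the pseudokinase gene Trib3 (18.6 to 20.6 CPM in the others). Western diet control A had 226 CPM of Calr (367 to 444 CPM) and 152 CPM of Dnajc3 (221 to 253 CPM). In high-fat Plvap KO mice, library B had a sensor mean of -0.426 (0.127 to 0.179 in the others). High-fat control E had 455 CPM of Xbp1 (348 to 374 CPM) and a mean of the PERK and ATF4 branch of -0.207 (0.206 to 0.331), high-fat control B had 8.69 CPM of the phosphatase subunit gene Ppp1r15a (9.99 to 10.6 CPM), and high-fat control D had 126 CPM of the translocon-associated gene Ssr1 (90.1 to 96.3 CPM).

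In Cav1 KO livers, library D had 734 CPM of Hspa5 (568 to 581 CPM in the others), library B 380.9 CPM of Pdia6 (459 to 465 CPM), library C 5.79 CPM of Trib3 (9.85 to 10.7 CPM) and library A a degradation mean of -0.297 (-0.179 to -0.165). Wild-type library D of that comparison had 88.8 CPM of Ssr1 (104 to 108 CPM in the others).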

How the results depend on the processing

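None of the 82 called member values reversed among 728 values under the alternatives, and DESeq2 kept all 82 calls; calls were lost for 23 values with no filter, 17 without both libraries of highest chaperone level, 5 under the replicate block, 1 to 4 under each other setting, and for 33 of the lowest and highest values without single libraries, where 131 kept the call. The count of members called changed as follows. In fasted livers the Plvap KO count was 0, and 1 under the replicate block (Herpud1, 1.33 ± 0.12, edgeR adjusted p = 3.71e-05), although no label pairs those livers. In refed livers it was 0, and 1 with DESeq2 or the block; on the high-fat diet it was 0, and 1 with DESeq2. The Cav1 KO count of 1 was 3 with DESeq2, 2 with its size factors, 5 with no filter, 2 with the length trend removed, and 0 to 1 without single libraries. For western against high-fat controls the count of 8 was 18 with DESeq2, 2 with no filter, 5 under the block, and 0 to 15 without single libraries. Against chow, the western diet count of 1 in controls was 2 with DESeq2 or no filter and 0 to 2 without single libraries, and in Plvap KO mice it was 0 with no filter or without both libraries and 0 to 1 without single libraries. The high-fat count of 20 in controls was 8 with no filter, 5 without both libraries and 4 to 22 without single libraries, and that of 3 in Plvap KO mice was 2 to 4. For refed against fasted livers the count of 24 was 23 to 24 without single libraries in Plvap KO mice and 21 to 24 in controls. The difference of Plvap effect between high-fat diet and chow had 0 members, and 1 under the block (Herpud1, -1.80 ± 0.34, edgeR adjusted p = 0.0403). The remaining counts of 0 stayed at 0, and the replicate block changed no other count by over 1.5 times. The cause of these changes was not tested.

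Counts over all genes moved by over 1.5 times as well. Plvap KO against control had 289 genes in fasted livers (DESeq2 713, no filter 861, block 713), 3 in refed livers (59, 131 and 30), 2 on the western diet (21, 10 and 1, and 1 with only the 2 groups compared) and 38 on the high-fat diet (DESeq2 244, no filter 99). Cav1 KO had 607 (DESeq2 939, no filter 1279). Western against high-fat diet had 1143 in Plvap KO mice (block 523) and 283 in controls (DESeq2 591). Against chow, the western diet had 323 in Plvap KO mice (DESeq2 503, no filter 183, without both libraries 120) and 258 in controls (DESeq2 1.56 times as many, block 166), and the high-fat diet 1204 in controls (no filter 731, without both libraries 715). Differences of Plvap effect had 0 genes, with up to 56 under DESeq2 (western minus high-fat). In the knockout contrasts fold changes varied with gene length across genes, with Spearman rho between -0.291 (Cav1 KO) and 0.269 (refed Plvap KO). For refed against fasted livers rho was 0.231 in Plvap KO mice and 0.076 in controls. For the difference of Plvap effect, refed minus fasted, it was 0.332. Library totals differed, and what depth limits was not tested.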
